A study of Mus musculus with 14 samples.

Results

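The resting transcriptome of the adult mouse left ventricle was described from the 5 libraries titled Control 1 to Control 5, out of 14 libraries in the study. The rule that picks these samples is their title. They came from left ventricle of mice labelled C56Bl6 that received a control diet for 10 weeks, and no virus is named for them. The other 9 libraries came from mice with HFpEF (heart failure with preserved ejection fraction) given a scrambled or a FoxO1 hairpin, and were not used here. The tissue was taken in ice-cold buffer and frozen, and polyadenylated RNA was sequenced. The labels give neither the sex nor the hour of harvest, and do not say that each library is a separate animal. The spread between libraries reported below may therefore be technical, and p-values measure only the spread between these samples.

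Each beat of the ventricle is made by myosin thick filaments pulling on actin thin filaments inside sarcomeres, the contractile units of heart muscle. Calcium released from the sarcoplasmic reticulum starts the pull and is pumped back to end it. The energy comes from ATP made in mitochondria, chiefly from fatty acids, and the muscle cells sit in a mesh of fibroblasts, capillaries, pericytes and resident macrophages. Many of these proteins are encoded by families of similar genes (paralogs), of which the adult ventricle is known to prefer particular members.

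The libraries held 21247155, 13174118, 15110786, 14798247 and 14838889 estimated counts for controls 1 to 5, over 24054 genes. Between 16180 and 16531 genes had counts in a library, and 3 counts, the limit that a count of 0 allows, corresponded to 0.141 to 0.228 CPM (counts per 1000000 counts). No pair of libraries agreed within sampling noise, so all 5 were kept as separate samples. No mitochondrially encoded gene is named in the table, so mitochondrial genes below are nuclear genes. All shares and ranks below are of the counts in this table, and leave out genes that it does not name. Of the 9 listed atrial markers 7 had counts in every library, and their summed level was 725 to 808 CPM, nearly all of it Pam (677 to 768 CPM) and Stard10 (20.7 to 22.4 CPM). Sbk3 followed at 8.07 to 17.9 CPM, and Sbk2, Myl4, Dkk3 and Fgf12 reached at most 5.36, 2.77, 1.86 and 1.36 CPM. Myl7, the atrial myosin light chain, reached at most 0.673 CPM and Bmp10 at most 0.0687 CPM, and Sln, in the pump regulator family, at most 0.0679 CPM. Adipocyte markers stayed at or below 1.05 CPM, lymphocyte markers at or below 2.02 CPM, and lung and liver markers at or below 0.611 CPM. Ddx3y, a Y-linked gene, lay between 117 and 135 CPM in all 5 libraries, and Xist at 0.848 to 3.19 CPM. Rn45s, the ribosomal RNA precursor that poly(A) selection depletes, lay between 2084 and 2947 CPM. The libraries did not stand alike, and control 1 was the deepest. In several lists most members had their highest or lowest level in 1 library, as set out below. This was control 1 for clock and heat shock genes and control 5 for immediate early genes. It was control 4 for fatty acid oxidation genes and control 2 for macrophage and matrix genes. Of these lists, only the macrophage list had a share of counts flagged as far from the other libraries in the check given at the end.

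A small number of genes carried much of the message. Myh6, the alpha myosin heavy chain that is the motor of the adult mouse ventricle, was the most abundant gene in every library at 60941 ± 2861 CPM (SD, n = 5), with 59856, 58117, 58746, 63724 and 64261 CPM in controls 1 to 5. It alone took 6.09% of all counts (5.90 to 6.34%). The 10 most abundant genes took 14.9%, the 20 most abundant 19.6% and the 100 most abundant 32.6%. Between 42 and 45 genes held 25% of the counts, and 422.6 ± 9.29 genes (SD, n = 5) held 50%. The other end of the table was long. The 105 genes with a mean of 1000 CPM or more held 33.1% of the counts, the 1628 genes between 100 and 1000 CPM 38.8%, the 7154 genes between 10 and 100 CPM 26.2%, and the 3984 genes between 1 and 10 CPM 1.80%. A further 4998 genes lay below 1 CPM, together at 0.115%, and 6185 genes were at 0 in all 5 libraries.

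The 20 genes of highest mean CPM were nearly all genes of contraction and of energy supply. After Myh6 came Atp2a2, the calcium pump SERCA2, at 19896 CPM, Mb, the oxygen store myoglobin, at 12369 CPM, Tpm1, tropomyosin, at 10377 CPM, and Tnnt2, cardiac troponin T, at 8989 CPM. Myl2 and Actc1, the ventricular light chain and cardiac actin, stood at 8406 and 8194 CPM. Lpl, the lipase that frees fatty acids from circulating triglyceride, followed at 6753 CPM. Mybpc3 (6528 CPM) and Ttn (6418 CPM) encode myosin-binding protein C and titin. The rest of the 20 were Pln, the pump inhibitor phospholamban, Slc25a4, the ATP and ADP carrier, the ATP synthase genes Atp5a1 and Atp5b, Tnni3, Myl3, Fabp3, Gapdh, Pde4dip and Ogdh, between 5575 CPM (Pln) and 3348 CPM (Ogdh).

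Counts favour long genes, so levels were compared between genes as counts per kilobase of merged exon, scaled to a sum of 1000000 in each library. On this length-scaled level Myh6 at 32578 was followed closely by Mb at 29817, then Fabp3, the fatty acid carrier of the cytosol, at 19672, Actc1 at 18206 and Myl2 at 15500. In all, 13 genes were among the 20 highest on both scales. Short genes came forward on the length-scaled level: Cox6a2, a heart and muscle subunit of cytochrome oxidase, at 8999 although 46th by CPM, Tcap, which caps titin at the Z-disc, at 7594, Tnnc1, cardiac troponin C, at 7590, and Ckmt2, the mitochondrial creatine kinase, at 5879. Ttn, whose merged exons are very long, stood at only 198. Atp5o (5016) and Ldhb (4460) also entered this list, as did Gm20594 (7229), a gene model of no described function here. All exon bases of Atp5o, 64.7% of those of Pln and 31.9% of those of Mb are shared with another annotated gene, and how the counting split such reads is not given in the sources used here.

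Muscle genes took about 1 count in every 5. The 61 listed genes of the filaments, the Z-disc, calcium cycling and the oxygen and phosphate buffers held 20.7 ± 0.234% of the counts (SD, n = 5, range 20.4 to 21.02%). The thick filament list held 8.74 ± 0.233%, the thin filament list 3.64 ± 0.0331%, the titin and Z-disc list 2.68 ± 0.0367%, the calcium cycling list 3.45 ± 0.0507% and the buffers 2.15%. These shares moved little between libraries: the thin filament share, for example, was 3.68, 3.60, 3.64, 3.63 and 3.67% in controls 1 to 5.

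A goodness-of-fit test in edgeR asked of each gene whether the 5 libraries differed by more than genes of the same abundance did, and 252 of 12806 tested genes (1.97%) passed at a Benjamini-Hochberg adjusted p below 0.05. Such genes are called variable here, and genes too low in any library were not tested. Of the muscle genes, 6 of 58 tested were variable. The median coefficient of variation (CV, the SD as a percent of the mean) over the tested muscle genes was 5.30%, against 8.10% over all tested genes. Over the 2835 genes with a mean of 1000 counts or more it was 4.69%. Low genes vary more by counting alone, so the 5.30% does not show muscle genes to be steadier than genes of like level.

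Among the thick filament genes, 1 of 10 tested was variable. This was Myh7, the beta myosin heavy chain of the fetal mouse ventricle, which had 359, 452, 1222, 763 and 773 CPM in controls 1 to 5 (CV 47.4%, edgeR adjusted p = 1.98e-23). Control 3 was the highest and control 1 the lowest, a range of 3.41-fold. Its neighbour on chromosome 14, Myh6, varied only 1.11-fold over the same libraries (Myh6 at chr14:54941921-54966927 and Myh7 at chr14:54970684-54994626, GRCm38, both on the minus strand). Of the exon bases of Myh7, 13.3% are shared with another gene. The light chains and the thick filament proteins were steady, with CVs of 5.26% for Myl2, 5.32% for Mybpc3 and 2.82% for Myl3.

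Of the thin filament genes 2 of 9 tested were variable. Acta1, skeletal actin, had 329, 189, 268, 168 and 215 CPM (edgeR adjusted p = 1.77e-05), with control 1 highest. Lmod2, leiomodin, which nucleates and lengthens thin filaments, had 773, 849, 1016, 1064 and 1246 CPM (edgeR adjusted p = 0.032), with control 5 highest. Without control 1 neither passed (0 of 9 in edgeR, 2 unadjusted), at edgeR adjusted p = 0.0805 for Acta1 and 0.511 for Lmod2. Lmod2 also failed without control 2, 3 or 5 (edgeR adjusted p = 0.0685, 0.064 and 0.301), so its call was marginal. The 4 leading thin filament genes barely moved: Tnnt2 lay between 8846 and 9132 CPM (CV 1.39%) and Tnni3, cardiac troponin I, between 4754 and 4957 CPM (CV 1.63%), while Tpm1 and Actc1 had CVs of 2.83 and 6.61%.

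In the titin and Z-disc list 3 of 18 tested genes were variable. Tcap had 1241, 1992, 2276, 2208 and 2297 CPM (edgeR adjusted p = 7.12e-05), so that control 1 lay apart below the other 4. Ankrd1, a stretch-responsive repeat protein, had 1297, 1113, 1823, 1167 and 1927 CPM (edgeR adjusted p = 2.16e-05), with controls 3 and 5 above the rest. Ankrd23, its relative, had 533, 428, 381, 312 and 408 CPM (edgeR adjusted p = 0.03), and shares 78.2% of its exon bases with another gene. Without control 1 only Ankrd1 of these passed, and Ankrd23 failed also without control 3 or 4 (edgeR adjusted p = 0.0853 and 0.912). Actn2, the alpha-actinin that crosslinks actin at the Z-disc, stayed between 2683 and 2799 CPM, and Ttn and Des had CVs of 4.35 and 3.71%.

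Of the calcium cycling genes, 0 of 16 tested were variable in edgeR (1 at an unadjusted p below 0.05). DESeq2's flag for dispersion above its trend marked 0. With 1.97% called over all tested genes, 0 of 16 does not set this list apart. Its median CV was 5.325%, and all 16 differed by more than counting error, against 36.5% of all tested genes. That test passes more readily in genes with more counts. All tested genes of the thick filament list (10 of 10) and the glycolysis list (19 of 19) passed it too. Atp2a2 lay between 19053 and 20582 CPM, Pln between 5260 and 5754 CPM, Hrc between 1488 and 1637 CPM, and Ryr2, the calcium release channel, between 2480 and 2992 CPM. The largest CV in the list was that of Casq1, the skeletal calsequestrin, at 21.3% around a mean of 10.6 CPM, while its heart form Casq2 had 2.60% around 1083 CPM.

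Genes of mitochondrial function held 10.1 ± 0.0594% of the counts (SD, n = 5, 138 genes, range 10.0 to 10.2%), so that muscle and mitochondrial genes together made up 30.7%. The mitochondrial genes had a median CV of 3.04%, below the 5.30% of the muscle genes. Of the 137 tested, 2 were variable (1.46%), near the 1.97% called over all tested genes. The 84 genes of the respiratory complexes held 4.85 ± 0.0285%, and 0 of the 83 tested passed in edgeR, with 0 at an unadjusted p below 0.05 and 0 flagged by DESeq2. Their median CV was 2.66%. At the 1.97% called over all tested genes a list of 83 would hold few, so 0 calls alone do not set these genes apart. An unadjusted p below 0.05 in edgeR was seen in 764 of all 12806 tested genes.

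By complex, complex V, the ATP synthase, held 1.82% of the counts, complex I 1.21%, complex IV 0.804%, complex III with cytochrome c 0.660% and complex II 0.353%. Atp5a1 and Atp5b, which form the catalytic head of the synthase, stood at 5396 and 5238 CPM, and Sdha, the flavoprotein of complex II, at 1928 CPM. Ndufs1, a core subunit of complex I, stood at 880 CPM. Cyc1, cytochrome c1, was among the steadiest genes of the whole table, with 823, 824, 805, 816 and 820 CPM (CV 0.919%). By CPM, complex I was lowest in control 4 for 19 of its 36 genes and highest in control 5 for 22. Over all tested genes these shares were 21.3 and 18.8%. The size of this was small, with 1.18% of the counts in control 4 and 1.22% in each of the other 4. By share of counts control 1 was the highest, at 1.222%, with control 5 at 1.219%.

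Pyruvate dehydrogenase and the citric acid cycle held 1.99% of the counts, and 0 of 18 tested genes were variable in edgeR (0 unadjusted, 0 by DESeq2). With 1.97% called over all tested genes, 0 of 18 does not set this list apart. Ogdh, which acts within the cycle, had 3348 CPM, Idh2 2605 CPM and Cs, citrate synthase, 1753 CPM. Pdha1, a subunit of the gate between glycolysis and the cycle, stayed between 1490 and 1523 CPM. The carriers and kinases held 1.63%, led by Slc25a4 (5373 to 5811 CPM) and Ckmt2 (2233 to 2539 CPM). Fatty acid oxidation genes held 1.61 ± 0.0993% and are taken up below with control 4. Glycolysis held 1.68%, led by Gapdh at 4104 CPM, Aldoa at 2254 CPM and Ldhb at 1947 CPM. Only Pgam1 of its 19 genes was variable, at 100.2 CPM in control 1 and 61.2 to 69.4 CPM in the others, and it did not pass without control 1, 3 or 4.

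Genes of the stroma, vessels and blood held 1.38 ± 0.0763% of the counts (SD, n = 5, 144 genes, range 1.30 to 1.49%). In bulk tissue, fewer cells of a type and less RNA per cell cannot be told apart. Stromal genes had a median CV of 11.6%, above that of the muscle and mitochondrial genes, but they were also lower in counts, and low genes vary more by counting alone. By the test, which compares genes of like abundance, 7 of 115 (6.09%) were variable, against 10.3% of the muscle genes and 1.97% of all tested genes. The order of the first 2 is not firm. Without control 1 the thin filament calls fell from 2 to 0 and the titin and Z-disc calls from 3 to 1. Among stromal lists the matrix call fell from 1 to 0 and the red cell calls rose from 2 to 4.

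The basement membrane list was the largest stromal list by counts, at 0.399%, led by Hspg2, perlecan, at 940 CPM, and by the collagen IV chains Col4a1 at 684 CPM and Col4a2 at 622 CPM. Endothelial genes held 0.306%. Fabp4 (424 to 531 CPM), Cdh5, the adhesion protein of endothelial junctions (317 to 358 CPM), Aqp1 (290 to 397 CPM) and Kdr (302 to 337 CPM) led them. Fibroblast genes held 0.195%, led by Gsn at 1013 to 1238 CPM and by Dcn, decorin, at 329 to 380 CPM. Fibrillar collagens and other matrix genes held 0.176%, with Sparc at 261 CPM, Col3a1 at 256 CPM, Bgn at 163 CPM and Col1a2 at 139 CPM. Pericyte and smooth muscle genes held 0.141%, led by Abcc9 at 738 CPM and Rgs5 at 189 CPM. Gsn and Abcc9 are also transcribed in heart muscle cells, so these 2 are weaker markers than the rest. They made up a large part of their lists, which summed to 1796 to 2141 CPM (fibroblast) and 1297 to 1456 CPM (pericyte and smooth muscle). The shares of these 2 lists are therefore not shares of those cells alone. Macrophage genes held 0.0351%, led by Lyz2 (45.004 to 62.6 CPM), C1qa, Csf1r and C1qc. Schwann cell genes, at 0.003115%, and mesothelial genes, at 0.00276%, were traces.

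**Figure D1:**
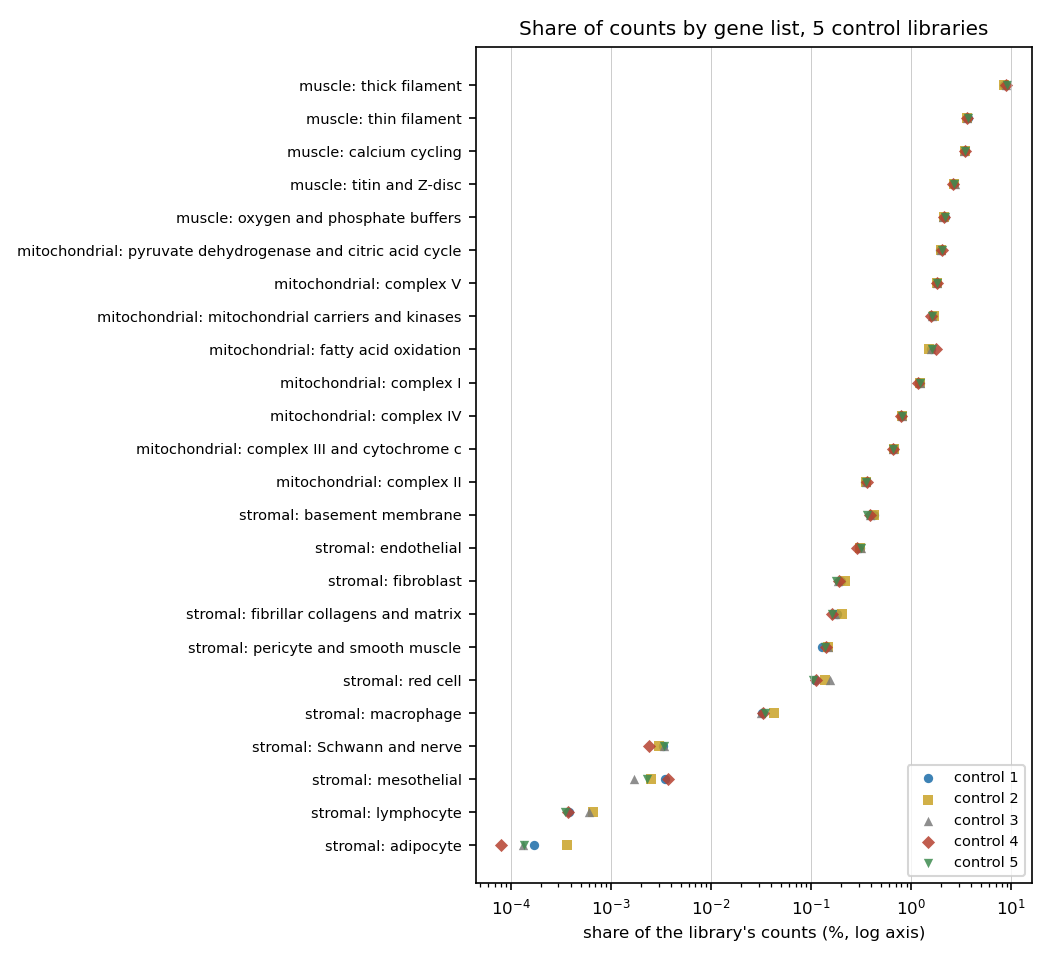
Share of all counts (percent, log axis) taken by each gene list in each of the 5 control libraries, 1 point a library. The thick filament list sits highest at 8.49 to 9.00%, the mitochondrial lists lie between 0.353% (complex II) and 1.99% (citric acid cycle) on average, and the macrophage list lies at 0.0320 to 0.0429%.

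Most gene families were served chiefly by 1 member. In 45 families of paralogs, compared on the length-scaled level, the leading member took 90% or more of the family in 29 and 99% or more in 12. In a further 15 it took between 50 and 90%, and in 1 family less. The same member led in all 5 libraries in 42 families. These shares were described, not tested.

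Contractile families were among the most one-sided. Tnni3, Tnnc1, Myl2 and Pln took nearly all of the length-scaled level of their families. Myh6 took 98.7 ± 0.460% of the sarcomeric myosin heavy chains (SD, n = 5), with 99.1, 98.97, 97.9, 98.7 and 98.6% in controls 1 to 5, and Myh7 took 0.901%. As a ratio of length-scaled levels, Myh6 exceeded Myh7 by 61.6 to 214 times. Actc1 took 97.1 ± 0.747% of the sarcomeric actins and Acta1 2.91%, and Tpm1 took 95.5% of the tropomyosins. Actc1 and Acta1 encode nearly the same protein, so their upstream sequences are shown to set the pair side by side. Each is the stretch of 200 bases before the start of the gene, 5′ to 3′ on the gene's strand, from RefSeq on GRCm38.p6, with the CArG box, the element bound by serum response factor, in capitals. The stretches are chr2:114052876-114053075 for Actc1 and chr8:123894776-123894975 for Acta1, both on the minus strand.
Actc1: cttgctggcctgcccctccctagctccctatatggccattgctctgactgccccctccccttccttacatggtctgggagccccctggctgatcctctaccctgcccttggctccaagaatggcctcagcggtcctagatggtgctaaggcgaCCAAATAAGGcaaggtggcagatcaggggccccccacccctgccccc
Acta1: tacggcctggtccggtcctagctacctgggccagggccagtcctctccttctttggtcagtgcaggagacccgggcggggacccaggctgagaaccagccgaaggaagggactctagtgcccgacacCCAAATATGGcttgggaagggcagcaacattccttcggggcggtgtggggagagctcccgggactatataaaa
The box begins 47 bases before the start of Actc1 and 73 bases before that of Acta1. Both strands were searched over 250 bases before the start. Of the genes in the thick filament, thin filament, and titin and Z-disc lists, 32 of 38 had a promoter window, and 7 of their 45 windows held a CArG box (Acta1, Actc1, Ldb3, Myl3, Myom1 and Nebl), against 1.47% of 32851 windows over all genes and 1.21% of 12305 windows of tested genes. A match is a description of letters and not evidence of binding. Both actin genes hold a box, while their length-scaled levels stood at 18206 and 548.

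Muscle forms of mitochondrial genes also led their families, to differing degrees. Ckmt2 took 99.99% of the mitochondrial creatine kinases. Cox6a2 took 96.7% of its pair, Cox7a1 80.4 ± 0.300% (SD, n = 5) and Cox8b 78.7%. For subunit c of the ATP synthase, made from 3 genes with the same mature product, Atp5g3 took 66.6%, Atp5g1 20.5% and Atp5g2 12.9%. The second place depended on the length used: with the longest transcript Atp5g1 took 9.77% and Atp5g2 13.1%, and without length Atp5g1 took 37.6% and Atp5g2 8.06%. Slc25a4 took 94.6% of the ATP and ADP carriers and Cpt1b, the muscle form of the enzyme that commits fatty acids to oxidation, 95.7% of its family, although 81.4% of its exon bases are shared with another gene. Among fuel enzymes, Ldhb took 87.8% of lactate dehydrogenase, and Hk2 took 77.9% of hexokinase with Hk1 at 21.9%, or 34.0% with the longest transcript.

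Several families of regulators and channels were more evenly divided. Mef2d and Mef2a, muscle transcription factors, took 43.9 and 42.8% of the MEF2 family on merged exons, and the leader differed between libraries. This even split depended on the length used: Mef2a led at 58.2% with Mef2d at 24.996% on the longest transcript, and at 57.4% with Mef2d at 24.0% without length. Foxo4 took 54.6% of the FoxO factors, Foxo3 25.3% and Foxo1 14.1%. Without the length scaling the leader was Foxo3 at 36.8% in place of Foxo4 at 36.6%, and Foxo1 had 23.6%. The leader also changed without length scaling for the inward rectifier channels (Kcnj2 in place of Kcnj12, which had 61.1%) and for the natriuretic peptides. Other leaders were Akt1 at 67.1%, Ppara at 77.7%, Esrra at 64.9%, Gata4 at 75.5%, Flnc at 69.3% and Gja1, the main ventricular gap junction protein, at 91.3%.

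Of the 45 families, the natriuretic peptides and the pyruvate dehydrogenase kinases had the largest SD of the leader's share, at 8.39 and 7.22 percentage points. Pdk2 took 53.7, 58.3, 59.7, 44.96 and 63.9% of the kinases in controls 1 to 5, and Pdk4, which is induced by fasting, took 37.0, 30.5, 29.5, 47.1 and 24.7%. Pdk4 thus led in control 4 only. Nppb took 52.8, 47.2, 48.8, 43.2 and 65.1% of the natriuretic peptides, and Nppa nearly all the rest. Nppb led in controls 1 and 5, and Nppa in the other 3.

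**Figure D2:**
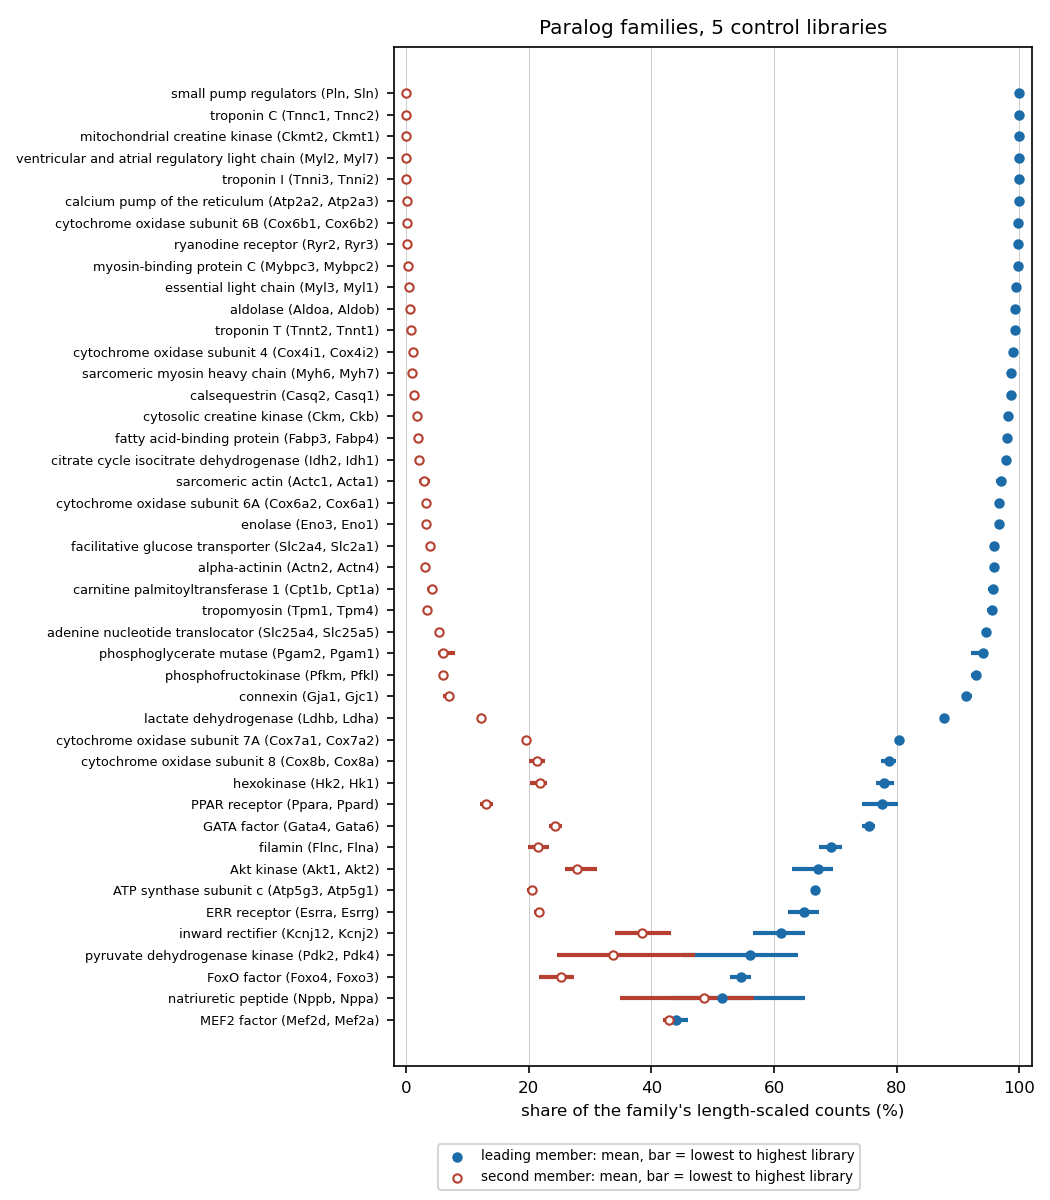
Share of each family's summed length-scaled level (percent) taken by its leading and its second member in 44 of the 45 families, as the mean of the 5 control libraries with a bar from the lowest to the highest library. Contractile families are among those at the right edge, with Myh6 at 98.7% and Actc1 at 97.1%, while the MEF2 factors, the natriuretic peptides and the pyruvate dehydrogenase kinases are divided, the peptides and kinases with long bars.

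Between libraries the typical gene moved little. The median CV over the 12806 tested genes was 8.10%, and the 10th and 90th percentiles were 3.41 and 21.7%. Counting error is a lower bar, and 4677 of the 12806 genes (36.5%) differed between libraries by more than counting error alone, by the same edgeR test with the dispersion set to 0. Without control 1, the deepest library, that count was 2817. Among the 2835 genes with a mean of 1000 counts or more, the median CV was 4.69%, and 1545 of them (54.5%) stayed under 5%. For 187 genes so deeply counted that counting contributes a CV below 1%, the median CV was 4.41%.

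The variable genes were not evenly spread over the libraries. Of the 252, 100 (39.7%) were highest in control 5, against 18.8% of all tested genes, and 20 were highest in control 3. Controls 1 and 2 were the lowest library for 76 and 71 of them. In 163 the highest library was at least 2 times the lowest, and in 13 at least 10 times. The calls leaned on single libraries, since 60 of the 252 passed whichever library was left out, and 94, 38, 41, 70 and 61 were lost without controls 1 to 5. Of the 252, 75 belong to a list.

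**Figure D3:**
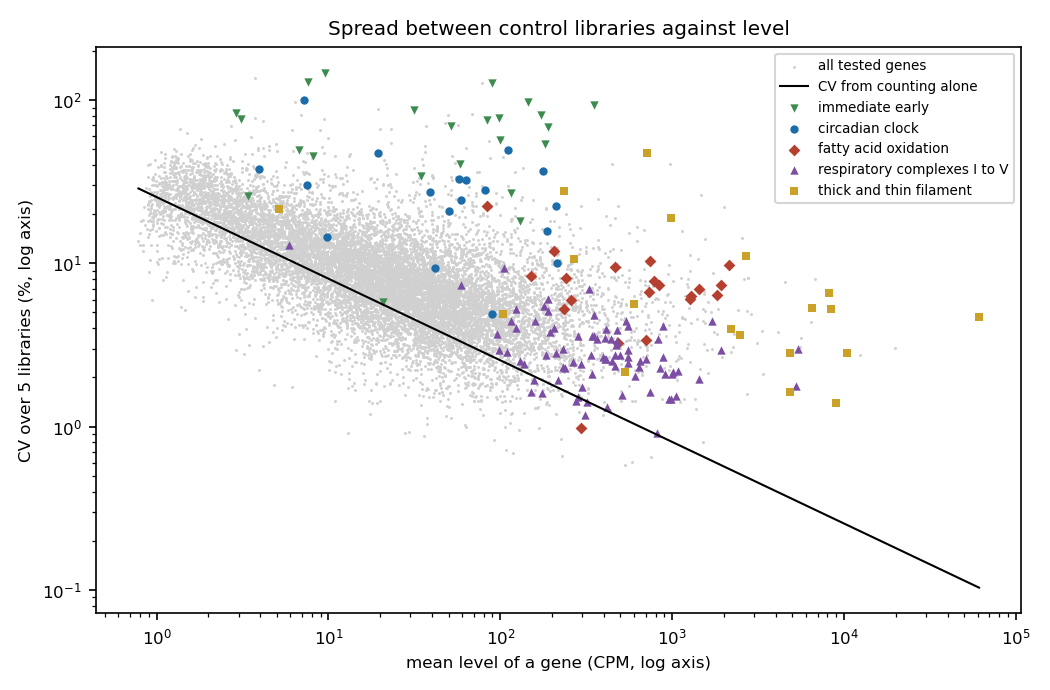
Coefficient of variation over the 5 control libraries (percent, log axis) against mean CPM (log axis) for 12806 tested genes, with the line that counting error alone would give and with 5 gene groups marked. Immediate early genes lie mostly above the cloud, with a median of 69.4%, but range from 5.76% for Ier3 to 147% for Atf3. Clock genes range from 4.92 to 101%, and respiratory complex genes lie along the lower edge near their median of 2.66%.

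Immediate early genes, which cells transcribe within minutes of a stimulus, were the group that moved most. Of the 23 tested, 20 were variable, 22 were highest in control 5 and 20 were lowest in control 2. The shares over all tested genes were 1.97, 18.8 and 18.6%. The list took 0.115, 0.0675, 0.156, 0.207 and 0.399% of the counts in controls 1 to 5. Btg2 and Dusp1 are shown by their upstream sequence because the list moved together and the cyclic AMP response element, TGACGTCA (the same on both strands), was found before both. The stretches, of 200 bases each from RefSeq on GRCm38.p6, are chr1:134079156-134079355 for Btg2 and chr17:26508473-26508672 for Dusp1, both on the minus strand, with the element in capitals.
Btg2: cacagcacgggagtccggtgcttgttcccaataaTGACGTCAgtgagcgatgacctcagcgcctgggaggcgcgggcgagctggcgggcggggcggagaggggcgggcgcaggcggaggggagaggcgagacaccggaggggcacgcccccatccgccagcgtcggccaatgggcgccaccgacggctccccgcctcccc
Dusp1: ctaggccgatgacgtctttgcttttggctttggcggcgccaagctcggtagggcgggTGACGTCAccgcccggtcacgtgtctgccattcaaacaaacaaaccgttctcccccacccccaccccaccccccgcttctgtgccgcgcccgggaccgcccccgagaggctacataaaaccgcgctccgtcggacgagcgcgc
The element begins 166 bases before Btg2 and 143 bases before Dusp1. The Dusp1 stretch also holds an E-box, left in lower case, which does not overlap it. Among 25 windows of 19 listed genes (of 26) that could be matched, 3 held the element (Btg2, Dusp1 and Maff), and it was in 1.55% of 32851 windows over all genes and in 2.50% of the 12305 windows of tested genes. Other elements were more frequent in this list, with the E-box CACGTG in 5 of the 25 windows (8.26% of windows of tested genes) and the CArG box also in 5, of the genes Egr2 and Zfp36 (1.21%).

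Nr4a1, a nuclear receptor induced by many stimuli (chr15:101254269-101274795, GRCm38, plus strand), had 31.1, 8.75, 39.7, 81.9 and 287 CPM in controls 1 to 5, a range of 32.9-fold (edgeR adjusted p = 1.21e-139). Egr1, a zinc finger factor, had 117, 33.9, 285, 452 and 860 CPM (edgeR adjusted p = 3.6e-130). Fos, which pairs with Jun proteins in the AP-1 factor, had 30.8, 1.57, 15.7, 35.8 and 74.3 CPM (edgeR adjusted p = 1.07e-92). In all 3, control 5 was highest and control 2 lowest, and the order of controls 1 and 3 differed between genes.

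Genes that end such responses moved in the same way. Btg2, an antiproliferative factor, had 53.8, 26.5, 114, 149 and 382 CPM. Dusp1, a phosphatase that shuts off MAP kinases, had 130, 55.4, 166, 198 and 402 CPM. Zfp36, which speeds the decay of messages with AU-rich tails, had 49.4, 24.5, 79.9, 115 and 220 CPM. The order of the libraries was the same in these 3, from control 2 through 1, 3 and 4 to control 5.

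Some members rested on control 5 alone. Atf3, a stress-induced repressor, had 4.10, 1.64, 2.82, 4.55 and 34.4 CPM (CV 147%, the largest among the called genes of 2 CPM or more), and without control 5 its edgeR adjusted p was 0.194. Without control 5, 13 of the 23 genes were variable, against 20 without any other single library. Fosb was not tested because of its low level in control 2, and its values ran differently, with 13.1, 0.598, 1.57, 3.26 and 10.3 CPM and control 1 highest. Of the tested members Jund, Ier3 and Myc were not called. Ier3 had a CV of 5.76% and 19.4 to 22.5 CPM.

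Some genes outside the list were also highest in control 5. Apold1, an early response gene of endothelium, had 22.0, 11.8, 38.7, 67.7 and 252 CPM, and Sik1, a kinase induced by cyclic AMP, had 55.0, 25.3, 35.9, 61.0 and 166 CPM. Thbs1, thrombospondin, had 10.3, 8.67, 6.82, 23.2 and 47.7 CPM, and Ctgf, a matricellular growth factor, 71.4, 68.5, 107, 89.9 and 182 CPM. Sgk1 and Errfi1, from the glucocorticoid list, had 201 and 81.4 CPM in control 5 and at most 108 and 38.4 CPM elsewhere. Of the 19 endothelial genes 2 were variable, Cldn5, a tight junction gene, with 30.1, 20.03, 31.9, 33.2 and 66.2 CPM, and Rgcc with 23.5, 25.4, 28.9, 29.3 and 47.9 CPM. Neither passed without control 5. The endothelial share was 0.313% in control 5 and 0.288 to 0.318% in the others, and Cdh5 was at 353 CPM there, within the range of the others. The part of endothelial cells in the list's pattern was not tested. The 18 described genes with the largest CV among the variable ones of 2 CPM or more were Atf3, Egr3, Apold1, Nr4a1, Arntl, Rasd1, Btg2, Egr1, Thbs1, Fos, Egr2, Sik1, Cyr61, Cxcl1, Zfp36, Eps8l1, Nfkbiz and Nr4a2, with 2 gene models beside them. Arntl, highest in control 1, and Eps8l1, highest in control 3, did not have their peak in control 5.

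Clock genes set control 1 apart. The clock is a loop in which the factors CLOCK or NPAS2 with ARNTL (BMAL1) drive genes such as Per, Cry, Dbp, Tef and Ciart through E-boxes, and some of the products shut the factors off. Of 18 tested clock genes 11 were variable. Of the 18, 6 were highest in control 1, among them Arntl, Clock, Npas2, Cry1 and Nfil3, and the other 12 were lowest there. Among all tested genes, 23.96% were highest and 23.95% lowest in control 1. Arntl (chr7:113207465-113314126, plus strand) had 19.9, 5.76, 4.92, 1.97 and 3.44 CPM (edgeR adjusted p = 3.51e-27), and Clock had 82.8, 60.2, 53.6, 48.3 and 48.8 CPM (edgeR adjusted p = 0.00361). Dbp, a target factor (chr7:45705088-45710203, plus strand), had 64.0, 179, 208, 216 and 219 CPM (edgeR adjusted p = 1.46e-19), so that the other 4 libraries lay close together above control 1.

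Ciart and Per1 were the targets that also moved among the other libraries, and their upstream sequences are shown for the E-box CACGTG (the same on both strands), in capitals. The stretches of 200 bases from RefSeq on GRCm38.p6 are chr3:95882229-95882428 on the minus strand for Ciart and chr11:69098749-69098948 on the plus strand for Per1.
Ciart: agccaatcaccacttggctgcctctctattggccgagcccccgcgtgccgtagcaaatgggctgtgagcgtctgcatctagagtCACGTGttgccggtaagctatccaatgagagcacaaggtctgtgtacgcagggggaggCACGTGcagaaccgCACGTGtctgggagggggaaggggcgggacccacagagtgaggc
Per1: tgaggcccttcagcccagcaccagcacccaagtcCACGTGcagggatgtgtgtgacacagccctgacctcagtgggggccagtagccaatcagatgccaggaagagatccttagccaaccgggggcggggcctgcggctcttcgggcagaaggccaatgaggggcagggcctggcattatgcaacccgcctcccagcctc
Ciart holds the box 116, 58 and 44 bases before its start, and Per1 166 bases before. The box was in 6 of 20 windows of the 15 clock genes (of 18) that could be matched (Bhlhe41, Ciart, Cry1, Per1 and Tef), against 6.02% of all windows and 8.26% of the windows of tested genes. Ciart had 5.13, 16.4, 22.2, 23.8 and 29.0 CPM in controls 1 to 5, and Per1 had 53.0, 82.7, 93.2, 131 and 195 CPM (edgeR adjusted p = 3.26e-24 and 1.61e-20). Control 1 was the lowest and control 5 the highest for both. Without control 1, 3 clock genes remained variable, namely Per1, Ciart and Arntl. Per1 is itself inducible as an early gene, and its highest library was that of the immediate early list.

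Of the further clock genes, Per3 (24.5 CPM in control 1, 60.7 to 71.5 CPM elsewhere), Tef (132 CPM against 206 to 255 CPM), Bhlhe41 (44.0 CPM against 75.3 to 97.7 CPM), Hlf, Cry2 and Per2 were variable and lowest in control 1. Cry2 failed without control 4 as well (edgeR adjusted p = 0.0778). Npas2 was at 6.59 CPM in control 1 and 3.06 to 3.44 CPM in the others, but did not pass (edgeR adjusted p = 0.213). Nr1d1, the repressor REV-ERB alpha, lay between 187 and 236 CPM with a CV of 10.0%, and Bhlhe40 between 86.1 and 96.9 CPM.

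Heat shock genes were also highest in control 1, for 11 of 15 tested, against 23.96% of all tested genes. The 4 variable ones were Hsph1 (93.4 CPM in control 1, 47.3 to 64.0 CPM in the others), Hsp90aa1, the inducible cytosolic chaperone (221 CPM against 127 to 152 CPM), Hspa1a (9.56 CPM against 3.06 to 5.02 CPM) and Hspa1b (8.24 CPM against 2.17 to 4.53 CPM). Hspa1a and Hspa1b are near-identical, so the split of counts between them is uncertain. Without control 1, 0 of the 15 passed in edgeR (1 unadjusted), and over all 5 libraries DESeq2 flagged 2. Hsph1 and Hspa1b failed without control 4 as well (edgeR adjusted p = 0.0906 and 0.0947). The abundant members were steadier, with Hsp90ab1 between 1450 and 1629 CPM and Hspb7 between 2533 and 3143 CPM, the latter lowest in control 1.

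Antigen presentation genes were lowest in control 1. Over all tested genes, 18.8% were highest in control 5 and 23.95% lowest in control 1. All 9 tested genes of MHC class I were lowest there and 8 were highest in control 5, though 1 was variable (H2-Q7, at 6.83, 8.82, 9.51, 12.6 and 14.6 CPM). H2-D1 had 162, 211, 201, 199 and 227.1 CPM, B2m, the shared light chain, 157, 193, 179, 177 and 202 CPM, and H2-K1 129, 184, 177, 172 and 207 CPM. All 7 class II genes were lowest in control 1 as well. H2-Aa, at 16.2 CPM there and 19.7 to 27.7 CPM in the others, was variable, and Cd74 had 54.2 CPM against 71.2 to 81.3 CPM. Of the interferon-induced genes 1 of 27 was variable, Iigp1, with 64.2 CPM in control 1 and 86.6 to 124 CPM in the others. H2-Q6, which was not tested, had 0.141, 6.95, 5.05, 3.53 and 16.01 CPM. The H2-Q genes resemble each other closely, so the split of counts among them is uncertain. Irs1, an adaptor of insulin signalling, was the variable gene of the 18 insulin and FoxO genes, with 79.9 CPM in control 1 and 46.5 to 53.0 CPM in the others. Irs1, H2-Q7, H2-Aa and Iigp1 did not pass without control 1. H2-Q7 failed also without control 4 or 5 (edgeR adjusted p = 0.0524 and 0.303), H2-Aa without control 5 (0.0632) and Iigp1 without control 2 (0.158). Control 1 was the deepest library, and with all libraries thinned to the smallest total 248 genes were variable, 231 of them among the 252.

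**Figure D4:**
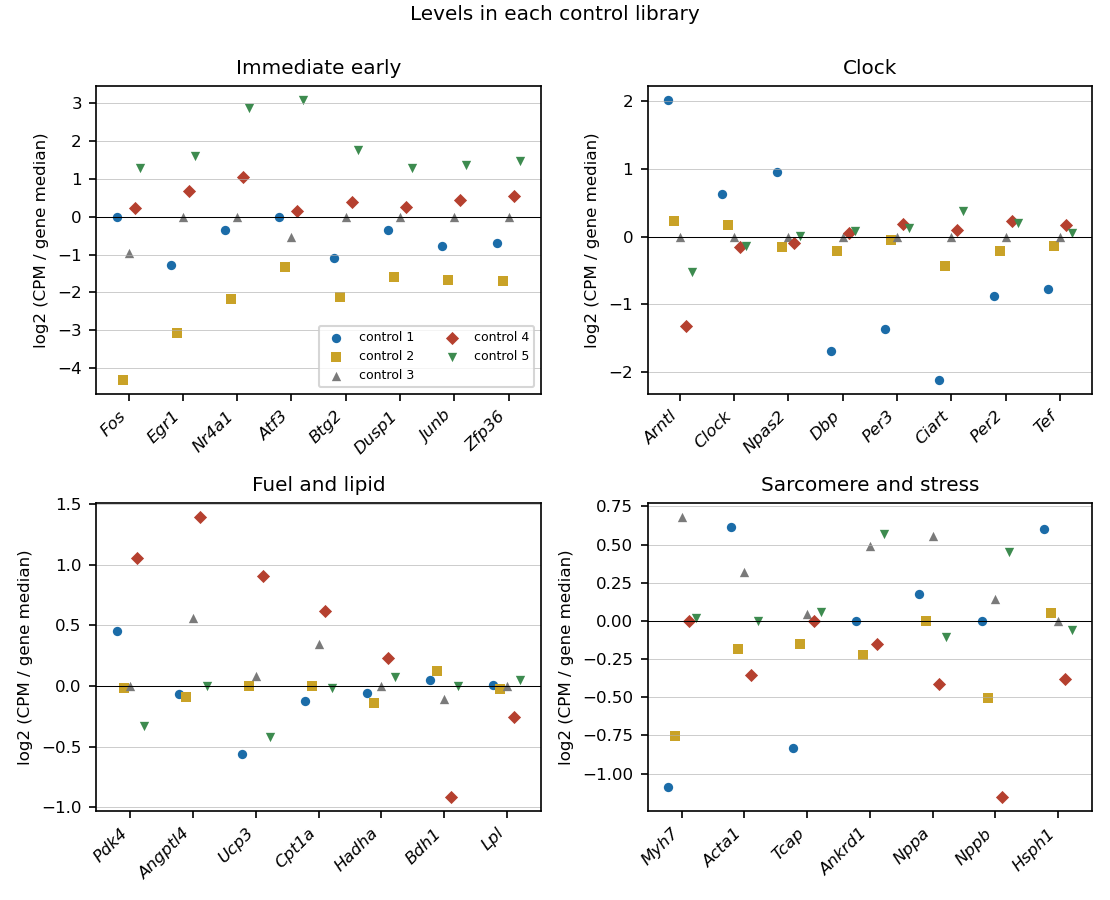
Log2 of each gene's CPM over its median across the 5 control libraries, in 4 panels of immediate early, clock, fuel and lipid, and sarcomere and stress genes, 1 point a library. Immediate early genes peak in control 5 and dip in control 2, Arntl and Clock stand opposite to Dbp, Per3 and Ciart in control 1, and Pdk4, Angptl4 and Ucp3 peak in control 4.

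Fatty acid oxidation genes were mostly highest in control 4. They took 1.56, 1.51, 1.58, 1.77 and 1.61% of the counts in controls 1 to 5, and 18 of 20 were highest in control 4, where 20.96% of all tested genes were highest. In 15 of the 20 control 2 was the lowest. Each gene moved little: Hadha, the long-chain subunit of the trifunctional protein, had 2007, 1904, 2094, 2450 and 2205 CPM (CV 9.83%), and Acadm, Acsl1 and Hadhb had CVs of 6.38, 6.96 and 7.34%. Of the 20, 1 was variable, Cpt1a, the liver form of carnitine palmitoyltransferase, with 66.8, 73.0, 92.8, 112 and 72.2 CPM (edgeR adjusted p = 0.0146). It did not pass without control 4, and without control 1 its edgeR adjusted p was 0.0569.

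Among other genes of fuel use, Pdk4, Angptl4 and Bdh1 were variable and had their highest or lowest level in control 4. Pdk4, which blocks entry of pyruvate into the citric acid cycle (chr6:5483351-5496309, minus strand), had 487, 352, 357, 739 and 284 CPM (edgeR adjusted p = 1.6e-13). Control 4 was highest and control 5 lowest, and the call held without control 4 (edgeR adjusted p = 0.0299). Angptl4, an inhibitor of lipoprotein lipase, had 6.22, 6.13, 9.64, 17.1 and 6.53 CPM (edgeR adjusted p = 4.57e-07). Bdh1, which interconverts the ketone bodies, went the other way with 149, 156, 133, 76.0 and 143 CPM (edgeR adjusted p = 4.1e-05). Neither Angptl4 nor Bdh1 passed without control 4. Other genes with such roles were steady, with CVs of 3.69% for Pdk1, 3.35% for Pdk2 and 7.33% for Cpt1b.

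Ucp3, an uncoupling protein chosen after its values were seen, had 55.1, 81.3, 86.0, 152 and 60.7 CPM, and its edgeR adjusted p without control 4 was 0.101. Lpl was lowest in control 4, with 7008, 6818, 6954, 5806 and 7179 CPM, and was not called. Glycolysis genes were lowest in control 4 for 12 of 19 and proteasome genes for 19 of 31, against 21.3% of all tested genes. In shares of counts these shifts were small, at 1.63% against 1.68 to 1.71% for glycolysis and 0.292% against 0.300 to 0.310% for the proteasome. Of the 14 PPAR, ERR and PGC-1 genes, regulators of oxidation, 0 were variable in edgeR (2 unadjusted, 0 by DESeq2), and Ppara itself ran from 98.2 CPM in control 5 to 150 CPM in control 1. Txnip, a glucose-responsive arrestin chosen after its values were seen, followed another order, with 500, 613, 1068, 1240 and 1399 CPM.

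Macrophage, matrix and dividing-cell genes were mostly highest in control 2. Macrophage genes were highest there for 15 of 18 tested, matrix genes for 15 of 17, basement membrane genes for 9 of 12, fibroblast genes for 9 of 14 and cell division genes for 11 of 16, where 19.1% of all tested genes were highest. Class I genes did not share this, with 0 of 9 highest in control 2. Class II and interferon-induced genes shared it only in part, with 2 of 7 and 8 of 27 highest there. By share of counts, control 2 was the highest library for class II genes, at 0.0181% against 0.0115 to 0.0172%. The interferon-induced share was highest there too, at 0.0545% against 0.0427 to 0.0539%, though by summed CPM control 5 was higher (549 against 537 CPM). The macrophage share was 0.0429% in control 2 and 0.0320 to 0.0351% in the others. Mrc1, the mannose receptor of resident macrophages, had 25.9, 39.7, 30.2, 29.7 and 32.1 CPM, and C1qa had 41.7, 51.7, 37.6, 39.6 and 43.1 CPM. In edgeR 0 of 18 macrophage genes, 0 of 14 fibroblast genes and 0 of 12 basement membrane genes were variable (4, 1 and 3 at an unadjusted p below 0.05), and DESeq2 flagged 0 in each. The stromal share was highest in control 2, at 1.49%, where the muscle share was lowest, at 20.4%. The part of these shares in the result was not tested.

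Some genes of these lists had their peak in another library. Eln, elastin, was the variable matrix gene, with 57.2, 40.4, 28.3, 32.7 and 30.8 CPM and control 1 highest, and it did not pass without control 1 (edgeR adjusted p = 0.719). Cenpf, a kinetochore protein, had 28.2, 66.9, 50.1, 70.9 and 43.8 CPM, with control 4 highest. Col4a1 and Col4a2 were highest in control 1, at 841 and 760 CPM. Mki67, the proliferation marker, was variable and highest in control 2, with 10.1, 16.1, 13.2, 6.38 and 8.52 CPM, and its edgeR adjusted p was 0.000489, or 0.147 without control 2 and 0.112 without control 4.

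**Figure D5:**
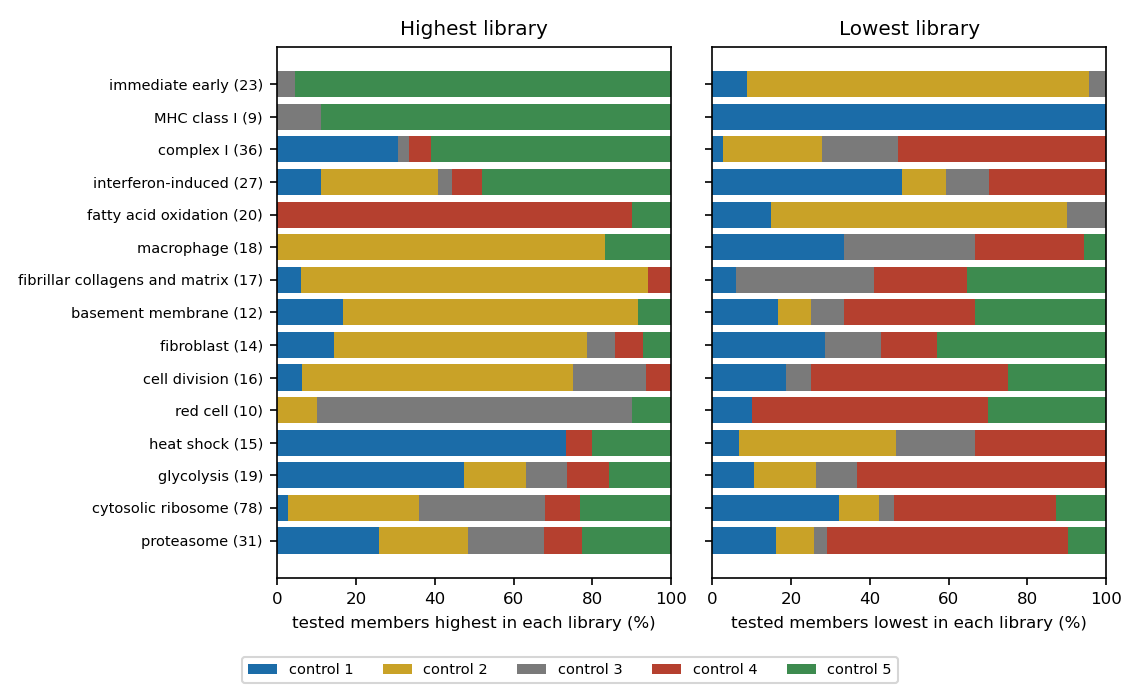
Percent of the tested genes of 15 lists that had their highest (left panel) and their lowest (right panel) CPM in each of the 5 control libraries. Control 5 takes 22 of 23 immediate early genes, control 4 takes 18 of 20 fatty acid oxidation genes and control 2 takes 15 of 18 macrophage genes as highest, and control 1 takes all 9 MHC class I genes as lowest.

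Of the natriuretic peptide and stress genes, 5 of 10 tested were highest in control 5 and 6 were lowest in control 4. The shares over all tested genes were 18.8 and 21.3%. Nppb, Nppa, Ctgf and Thbs1 were variable, and all but Nppa were highest in control 5. Nppb, brain natriuretic peptide, had 145, 103, 161, 65.4 and 199 CPM (edgeR adjusted p = 2.76e-14), with control 5 highest and control 4 lowest. Nppa, atrial natriuretic peptide, had 144, 127, 187, 95.2 and 118 CPM (edgeR adjusted p = 0.000555), with control 3 highest and control 4 lowest. Nppa shares 61.5% of its exon bases with another gene and did not pass without control 3 or control 4 (edgeR adjusted p = 0.787 and 0.176). Control 3 was thus the highest library for both Nppa and Myh7, fetal-type genes, while Acta1 was highest in control 1.

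Genes of small cell populations in the wall varied too. Of 7 conduction genes, 3 were variable, among them Cntn2 and Irx3, but 2 without control 1 or 3 and 1 without control 4. Cntn2, an adhesion protein of Purkinje fibres, had 14.6, 11.4, 23.4, 23.8 and 14.2 CPM (edgeR adjusted p = 1.9e-05), with controls 3 and 4 above the other 3. Irx3 had 56.7 CPM in control 1 and 82.2 to 98.8 CPM in the others. Without control 1, 3 or 4 Irx3 did not pass. Hcn4 stayed between 13.5 and 16.1 CPM and Gja5 between 7.06 and 8.86 CPM.

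Mesothelial genes, of the outer lining of the heart, were variable in 2 of 6. Upk3b had 9.61, 6.95, 3.67, 13.0 and 6.66 CPM, and Lrrn4 had 4.19, 3.51, 1.44, 5.97 and 2.82 CPM. Both were highest in control 4 and lowest in control 3, and neither passed without control 3 (edgeR adjusted p = 0.118 and 0.813). Lrrn4 failed without control 4 too (edgeR adjusted p = 0.23). Red cell genes were highest in control 3 for 8 of 10, against 17.1% of all tested genes. Hba-a1 had 543, 679, 775, 574 and 532 CPM and Hbb-b1 386, 480, 536, 399 and 358 CPM. The 2 variable ones, Hba-a2 and Hbb-bs, followed another order and were highest in controls 2 and 5. Hba-a2 failed without control 2 or 4 (edgeR adjusted p = 0.255 and 0.0878) and Hbb-bs without control 5 (0.229). The count itself was unsteady, with 1 variable red cell gene without control 2 or 4, 3 without control 5, 4 without control 1 and 4 with library totals as the scaling. At an unadjusted p below 0.05, 8 of the 10 passed in edgeR. The globin genes are near-identical copies, Hbb-b2 and Hbb-bt have the same value in every library, and their split is uncertain. Among skeletal muscle genes Myl1 was variable (20.2 to 35.4 CPM), and among the atrial list Sbk3 (8.07 to 17.9 CPM), while the fast myosins Myh1, Myh2 and Myh4 stayed at or below 0.272 CPM. Myl1 failed without control 1 or 4 and Sbk3 without control 4.

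Several control systems held few or no variable genes, though lists of this size would hold few at the 1.97% called over all tested genes. Of the 14 cardiac transcription factors 0 were variable in edgeR (1 unadjusted, 0 by DESeq2). Their median CV was 9.51%, against 8.10% over all tested genes. More than counting error was seen in 13 of the 14, against 36.5% of all tested genes. That test passes more readily in genes with more counts, so this is not a comparison at like level. Gata4 lay between 157 and 188 CPM, Nkx2-5 between 70.2 and 84.95 CPM and Hey2 between 6.05 and 6.32 CPM. Of the 23 channel and gap junction genes, Scn4a alone was called (47.5 to 82.1 CPM), and it did not pass without control 2, 3 or 4. The median CV of these 23 was 9.81%, and 18 of them differed by more than counting error. Foxo1 had 44.5, 42.5, 42.6, 47.3 and 44.7 CPM (CV 4.43%), and Insr, the insulin receptor, had a CV of 3.63%. Glucocorticoid-responsive genes were an exception, with 7 of 11 variable. Their peaks did not coincide: Zbtb16 was highest in control 1 (108 CPM), Pdk4 and Angptl4 in control 4, and Sgk1, Errfi1 and Cdkn1a in control 5. Fkbp5 and Tsc22d3, further genes of that list, were not called, with 13.9 to 23.3 CPM and 57.6 to 87.9 CPM.

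Ribosomal protein genes held 1.39% of the counts and 1 of 78 was variable, Rpl34, at 13.7 CPM in control 2 and 4.99 to 7.53 CPM in the others, and it did not pass without control 2. Rpl26, which was not tested, had 8.76, 25.1, 48.1, 0 and 0 CPM. Both families have processed copies elsewhere in the genome, so the assignment of their reads is uncertain.

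The steadiest well-counted genes had varied roles. Among genes with a mean of 1000 counts or more, the 20 of smallest CV ranged from 0.578 to 1.19%, and for 18 of them this was below the CV that counting alone would give, so their order has no meaning. They included Ghitm, a protein of the inner mitochondrial membrane (529 to 537 CPM), Rplp0, a ribosomal stalk protein often used as a reference gene (580 to 588 CPM), Psmc2 of the proteasome, the small GTPases Rac1, Rab1b and Rab5a, Ap2a2 of clathrin coats, Kpnb1, a nuclear import receptor, Sumo2, and Adcy6, an adenylyl cyclase of heart muscle. Aes, Pacsin3, Stk25, Adamtsl5 and Tbrg4 were also among them, with 1 clone-named gene. The mitochondrial lists supplied 4, Pdha1, Cyc1, Echs1 and Ndufs7, and 7 of the 50 genes of smallest CV. These lists held 135 of the 2835 genes with a mean of 1000 counts or more. Echs1, which hydrates enoyl-CoA in fatty acid oxidation, lay between 291 and 297 CPM and was the steadiest gene of its list. Gapdh, another common reference gene, had a CV of 3.82% with 3837 CPM in control 4 and 4109 to 4245 CPM in the others.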

How the data were processed

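Polyadenylated RNA of left ventricle was sequenced, and the authors deposited expected counts per gene, which need not be whole (22.6 to 23.9% of the values above 0 were not). The submitters' processing notes name Bowtie2 2.1.0, RSEM 1.2.15 and mm10, and the annotation, filters, read layout and strandedness are not given in the sources used here. Columns were matched to samples by library number, and 9 columns of other groups were not used. All 5 libraries form 1 group, so no comparison between groups was made.

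Shares were computed from the counts as deposited. For CPM and tests, counts were rounded, genes at a low level in any library were left out (below 0.674 CPM or 15 counts in all), and libraries were scaled by TMM in edgeR 4.0.16 (R 4.3.3). Length-scaled levels used merged exons of GENCODE vM21 (GRCm38), matched by symbol for 22727 genes and by synonym for 914. Spread was tested with edgeR's goodness-of-fit statistic (gof, one-sided) on an intercept-only negative binomial fit with trended dispersion, or dispersion 0 for counting error, with Benjamini-Hochberg adjustment over 12806 genes and calls at an adjusted p below 0.05. The procedure was tested on simulated data. DESeq2 1.42.0, other scalings and filters, thinned counts and leaving out each library were alternatives.

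Gene lists held 736 symbols, of which 733 were found and 659 tested, and 45 paralog families were set. Named genes are the 20 of highest mean CPM and length-scaled level, up to 4 leading members of each list with its variable ones and family members, the 20 variable genes of largest CV at 2 CPM or more, and the 20 of smallest CV at 1000 counts or more. Gene models and clone names were counted only. Other named genes were chosen after their values were seen. The samples were picked by title, but this group, the lists and the families were set with earlier results of these data known. Floors cover counting error only, while SDs and ranges are over the 5 libraries. Some listed genes are not reported here.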

Additional observations from a re-analysis of the deposited data

Results flagged for a closer look

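Of 148 quantities examined over the 5 libraries, 28 had 1 library far from the other 4, by a gap to the nearest library that exceeded Dixon's critical share of the whole range. Chance alone flags about 1 in 20 groups, but many of these quantities are genes named for a large spread, so the count cannot be read against that rate. Of the list shares, calcium cycling was low in control 3 at 3.36% of the counts, complex I was low in control 4 at 1.18%, and the macrophage list was high in control 2 at 0.0429%.

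In control 5 the high genes were Nr4a1 (287 CPM), Apold1 (252 CPM), Sik1 (166 CPM), Cldn5 (66.2 CPM), Rgcc (47.9 CPM), Atf3 (34.4 CPM), Egr3 (24.7 CPM), Nfkbiz (22.1 CPM), Maff (14.5 CPM) and Nr4a2 (7.21 CPM). In control 1 Hsp90aa1 (221 CPM), Pgam1 (100.2 CPM), Irs1 (79.9 CPM), Arntl (19.9 CPM), Npas2 (6.59 CPM) and Xirp2, a protein of the intercalated disc (1445 CPM), were high. The clock targets Dbp (64.0 CPM) and Per3 (24.5 CPM) and the titin cap Tcap (1241 CPM) were low there.

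In control 4 Acsl1, which activates fatty acids (1601 CPM), and Mef2d (178 CPM) were high, while Bdh1 (76.0 CPM), Lpl (5806 CPM) and Cdh5 (317 CPM) were low. In control 2 Col1a2, a chain of collagen I, was high at 155 CPM.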

How the results depend on the processing

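The number of variable genes stayed between 248 and 304 under the other scalings, filters, dispersions and the thinned depth, of which 229 to 251 were among the 252, and DESeq2's flag gave 173. Leaving out a library gave 176 to 230. The count above counting error was 2817 to 4321 with a library left out, lowest without control 1, and 3959 with thinned counts. Share of counts depended on the scale: muscle genes held 21.6% of length-scaled counts and 7.59% of counts without the 10 most abundant genes, mitochondrial genes 15.9 and 11.8%, and stromal genes 1.25 and 1.62%. On the length-scaled level 238.8 genes held 50%. For the 111 named genes tested, 440 values under another scaling, dispersion or depth kept their side of the threshold, 3 were lost and 1 was gained, and with a library left out 501 kept it, 53 were lost in 37 genes and 1 was gained. Some orders did reverse. Muscle genes held more of all counts than mitochondrial genes, but less without the 10 most abundant genes (7.59 against 11.8%). The leading member changed in 4 of the 45 families without length scaling and in 1 with the longest transcript. No paired analysis was possible because only 1 group was used. Genes at or near 0 in any library were not tested, and 5 libraries of 13174118 to 21247155 counts limit the spread that can be seen in low genes.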
